A study of Mus with 8 samples.

Results

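The integrin and laminin subunit genes are 35 of the 24013 genes in the count table, 25 for integrin subunits and 10 for laminin chains. They were picked out by gene name, by matching symbols to the NCBI gene numbers of the table, and all 35 were found. The rule itself uses no measured value, but the members were chosen with earlier results of these data known. RNA was sequenced from 3T3-L1 cells, a mouse preadipocyte line that turns into fat cells under a hormone cocktail. C cells had been infected with a lentivirus for a scrambled shRNA and P cells with one for an shRNA against the transcription factor Prep1, and both were selected in puromycin, so each is a selected population of 1 cell line. They were collected at day −2, before induction, and at day 1, after 1 day in medium with 10% FBS that held insulin (1 µg/ml), dexamethasone (1 µM) and the phosphodiesterase inhibitor IBMX (0.5 mM). By the methods of the study, the growth medium held BCS, and FBS came with the cocktail after confluence. Day 1 against day −2 thus also differs in serum and in time in culture, and uninduced cells of day 1 were not sequenced. Below, induction means this whole change, and the parts of cocktail, serum and time were not tested. Each of the 4 conditions had 2 replicas. The comparisons ask how the knockdown and the induction relate to the genes of a receptor family and of 1 of its ligand families.

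Integrins are receptors at the cell surface, each made of an α and a β subunit, that link the matrix outside the cell to the actin cytoskeleton. The α subunit largely sets the ligand: Itga3, Itga6 and Itga7 encode laminin receptors, Itga1, Itga2, Itga10 and Itga11 collagen receptors, and Itga5, Itga8, Itgav and Itga2b receptors of the RGD motif found in fibronectin and vitronectin. Laminins are trimers of an α, a β and a γ chain that build the basement membrane, the sheet of matrix that comes to surround each fat cell as it matures.

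The libraries held 20428816 to 27614353 counts, and values are given as CPM, which divide counts by library size, after TMM scaling, on which 3 counts correspond to 0.107 to 0.160 CPM. A gene with a longer transcript gives more reads, so CPM are compared between libraries and not between genes. Prep1 (symbol Pknox1) itself was at 28.1 and 26.4 CPM in C cells and 17.2 and 18.3 CPM in P cells at day −2. At day 1 it was at 38.1 and 36.5 CPM in C cells and 23.6 and 23.8 CPM in P cells, so the libraries did not overlap at either time. On the log2 scale the P to C ratio was −0.62 ± 0.14 (SE, adjusted p = 0.0558) at day −2 and −0.65 ± 0.14 (adjusted p = 0.0575) at day 1, both within the ratio threshold for a call (over 2 or under 0.5). The study checked Prep1 in its knockdown cells by immunoblot and reports that Prep1 stayed down after induction. The values here are of RNA only. Before induction, the P replicas stood apart from each other. Their SD of log2 differences between replicas was 0.795 over the tested genes of higher mean level, against 0.121 to 0.261 in the other conditions. Members of low level are not in this SD. P replica 1 of day −2 had far more collagen I counts than replica 2, with Col1a1 at 23550 against 4880 CPM. Without that replica, the calls of members at day −2 and with induction of P cells were kept except for Lamc1 and Itga7. Its condition then holds 1 library, and the spread comes from the other conditions, which varied less. Keeping a call in that refit is thus no check of the call. Further values without this replica are given with the results. Of the 10 fibroblast markers, 9 were at 27.6 CPM or more in every library and Cd34 was at most at 1.77 CPM. The summed level of the 7 adipocyte markers was 22.3 to 23.0 CPM in C cells and 46.8 to 53.5 CPM in P cells at day −2. It was 53.0 to 59.3 CPM in induced C cells and 209 to 210 CPM in induced P cells, and the part of such cells in the results was not tested. In RNA from whole cultures, fewer cells that express a gene and less RNA per cell cannot be told apart.

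Of the 35 genes, 30 had enough counts to be tested, 20 integrins and all 10 laminins. A gene was called when its adjusted p was under 0.1 (edgeR's quasi-likelihood test, Benjamini-Hochberg adjustment over all 13339 genes tested) and its ratio was over 2 or under 0.5. In P against C cells at day −2, 10 members were called, 5 higher and 5 lower, against a background of 6.98% of all genes called, 4.83% higher and 2.15% lower. When only the conditions of that comparison were fitted, Itga3, Itga6 and Lama4 kept their call and the other 7 lost it. At day 1, 4 members were called, 1 higher and 3 lower, with 4.06% of all genes called, 1.83% higher and 2.23% lower. Induction in C cells called 9 members, 5 higher and 4 lower, where 20.4% of all genes were called, 10.7% higher and 9.68% lower. Induction in P cells called 9 members, 3 higher and 6 lower, where the background was 18.0%, 7.65% higher and 10.4% lower. Between P and C cells, 3 members differed in their response to induction (interaction, adjusted p under 0.1). The response in P cells was more positive for 1 and more negative for 2 of them, where 2.37% of all genes were called, 0.435% more positive and 1.93% more negative. In all, 17 members were called at least once and 13 of those tested never. The median log2 ratio of the members was 0.32 for P against C cells at day −2, 0.05 at day 1, −0.28 for induction in C cells and −0.34 in P cells, beside 0.01, 0.01, −0.01 and 0.02 over all genes tested.

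With library totals in place of TMM, the median of all genes shifted by −0.18 for P against C cells at day −2, 0.10 at day 1, −0.11 for induction in C cells and 0.17 in P cells. That scaling moved the split of all called genes from 644 higher and 287 lower to 453 and 365 for P against C cells at day −2. For day 1 it moved from 244 higher and 298 lower to 280 and 261. For induction the split went from 1432 higher and 1291 lower to 1215 and 1455 in C cells and from 1020 and 1386 to 1288 and 1074 in P cells. For the interaction it went from 58 more positive and 258 more negative to 86 and 186. Among the members it gave 4 higher and 5 lower at day −2 and 5 higher and 6 lower for induction in C cells. The members' split of the other comparisons stayed as it was. At day 1, though, the member called higher was no longer Itga1, which lost its call, but another. The libraries of the conditions compared did not overlap for 24 of the 30 tested members at day −2 (P against C cells), beside 53.8% of all genes, and for 21 at day 1, beside 60.5%. The same held for 24 in induction of C cells, beside 77.7% of all genes, and for 19 in induction of P cells, beside 60.6%. With 2 against 2 libraries, an exact permutation test of a single gene cannot go below p = 0.333, so all p-values come from the model across genes.

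**Figure D1:**
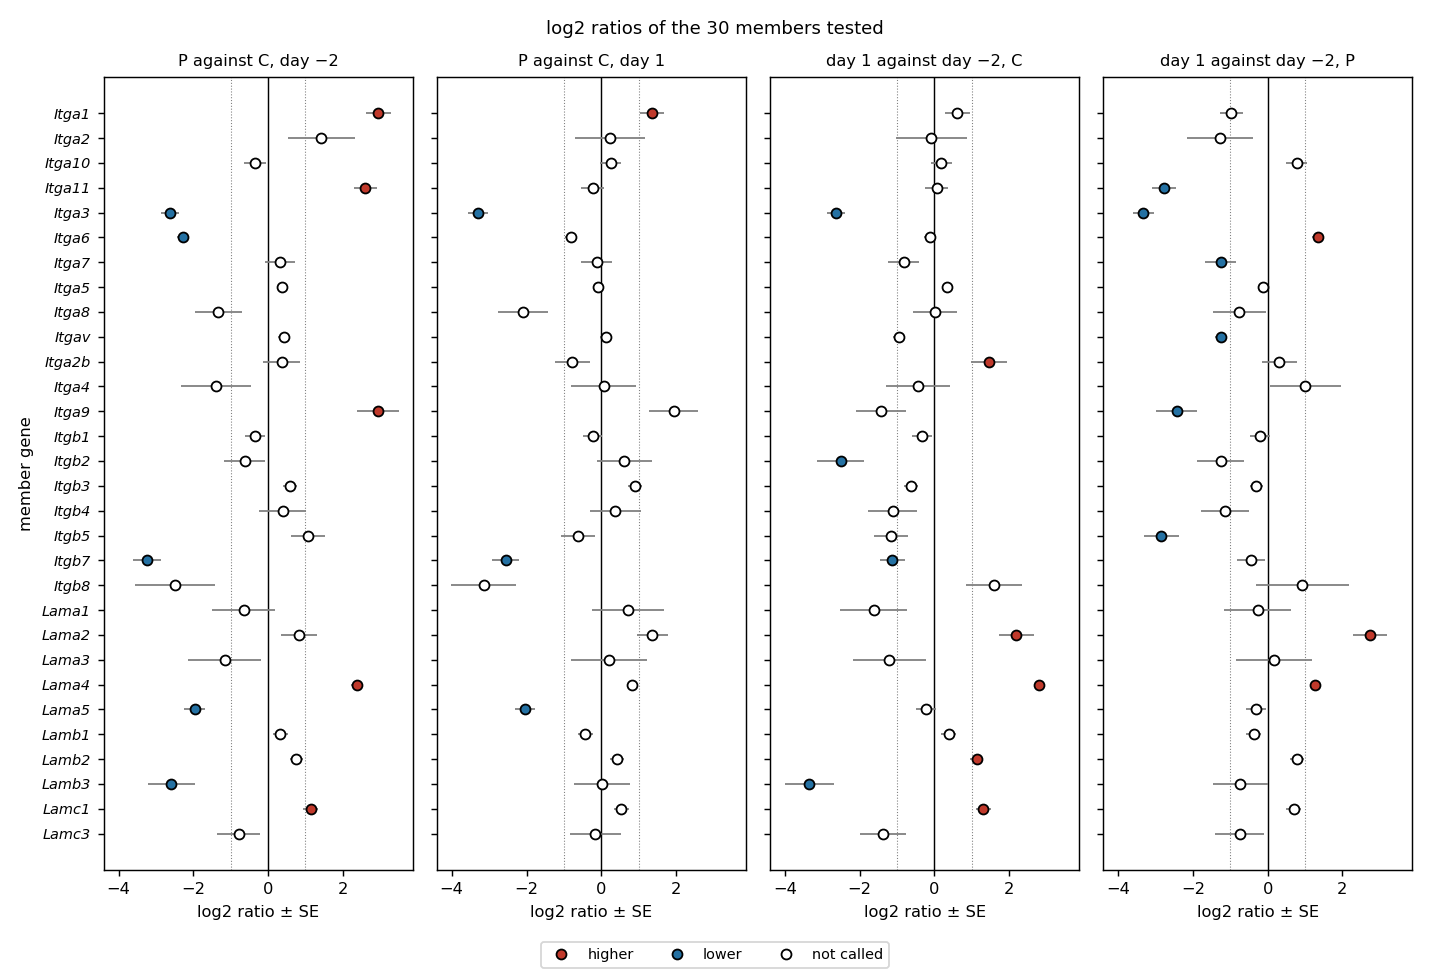
Log2 ratios (x axis) of the 30 tested integrin and laminin genes in the 4 comparisons, with bars of 1 SE; red points were called higher, blue points lower and white points were not called, and dotted lines mark the ratios 2 and 0.5. The 10 called genes of P against C cells at day −2 run from Itgb7 at −3.24 to Itga1 at 2.95.

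The laminin receptors Itga3 and Itga6 were lower in P cells before induction. Itga3, an α subunit that binds the laminins made with Lama3 and Lama5, was at 71.9 and 63.8 CPM in C cells and 12.1 and 10.1 CPM in P cells before induction. After induction it was at 11.5 and 10.3 CPM in C cells and 0.811 and 1.40 CPM in P cells. The C cells before induction were thus the highest, the induced P cells the lowest, and the other conditions lay between them with overlapping levels. Itga3 was lower in P than in C cells, with log2 ratios of −2.62 ± 0.24 (adjusted p = 0.00276) at day −2 and −3.30 ± 0.28 (adjusted p = 0.00311) at day 1. It fell with induction in C cells (log2 ratio −2.64 ± 0.24, adjusted p = 0.000626) and in P cells (−3.32 ± 0.28, adjusted p = 0.000604). No other member was called in all 4 comparisons, and each of these calls of Itga3 was kept in every refit, including those without any 1 library. The interaction of −0.68 ± 0.35 was not called (adjusted p = 0.394).

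Itga6, the other main α subunit for laminin, was at 69.1 and 67.7 CPM in C cells at day −2 and at 12.5 and 15.8 CPM in P cells at day −2. After induction it was at 64.0 and 62.5 CPM in C cells and at 35.6 and 36.1 CPM in P cells. The P cells were below the C cells at both times, but the levels had come closer at day 1. Itga6 was lower in P cells at day −2 (log2 ratio −2.28 ± 0.16, adjusted p = 0.00162), while the log2 ratio of −0.82 ± 0.16 at day 1 (adjusted p = 0.0399) was within the ratio threshold. Induction gave −0.11 ± 0.15 in C cells (adjusted p = 0.632), which was not called, and raised Itga6 by 1.34 ± 0.16 in P cells (adjusted p = 0.00214). The interaction was 1.46 ± 0.22 (adjusted p = 0.0388). It was lost without any 1 C library or without either P library of day 1 (adjusted p = 0.213 to 0.286), whereas the call at day −2 and that of induction in P cells were kept in every refit. Itga7, a laminin receptor best known from muscle, was at 2.67 and 3.72 CPM in C cells and 5.43 and 2.53 CPM in P cells at day −2. The induced libraries had 1.85 and 1.75 CPM in C cells and 1.54 and 1.77 CPM in P cells. It fell with induction of P cells (log2 ratio −1.25 ± 0.42, adjusted p = 0.0756). This call was lost in 9 refits, and with 1 library left out it was kept only without P replica 2 of day −2 and was −0.62 without P replica 1. The muscle factors Myod1 and Myog reached at most 0.0854 CPM, and Itga7 overlaps Mettl7b, which had 0 to 69 counts, on the genome.

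The collagen receptors Itga1 and Itga11 were higher in P cells before induction. Itga1, which favours the basement membrane collagen IV, was at 1.43 and 1.28 CPM in C cells and at 7.67 and 13.4 CPM in P cells at day −2. Induced C cells had 1.93 and 2.23 CPM and induced P cells 5.94 and 4.81 CPM. All 4 P libraries were above all 4 C libraries. The log2 ratio was 2.95 ± 0.34 (adjusted p = 0.00546) at day −2 and 1.37 ± 0.32 (adjusted p = 0.0764) at day 1. The ratio at day −2 was 3.30 without P replica 1. The call at day 1 was lost without any 1 C library or without either P library of day 1 (adjusted p = 0.184 to 0.450) and with library totals (adjusted p = 0.104), and that at day −2 only when the conditions of that comparison were fitted alone (adjusted p = 0.109). The log2 change with induction of P cells was −0.97 ± 0.31 (adjusted p = 0.066), within the ratio threshold, and the interaction of −1.58 ± 0.46 was not called (adjusted p = 0.199). The gene Pelo lies within Itga1 and had 330 to 726 counts. Whether the authors counted by strand is not given in the sources used here, so reads from the pair cannot be told apart.

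Itga11, a receptor of fibrillar collagen found on fibroblasts, was at 0.717 and 0.841 CPM in C cells before induction and at 4.52 and 4.96 CPM in P cells. Induced C cells had 0.828 and 0.796 CPM and induced P cells 0.726 and 0.653 CPM. Only the P cells before induction were high, and the other 6 libraries lay below 1 CPM. Itga11 was higher in P cells by 2.60 ± 0.30 (adjusted p = 0.00579) at day −2, a call lost without C replica 1 of day −2 (2.49, adjusted p = 0.108), and by 2.67 without P replica 1. It fell with induction of P cells (log2 ratio −2.77 ± 0.31, adjusted p = 0.00167), a call kept in every refit. In C cells induction gave 0.06 ± 0.31 (adjusted p = 0.909), a value whose sign turned in 2 refits. The interaction of −2.83 ± 0.44 (adjusted p = 0.0388) was lost without any 1 C library or either P library of day 1 (adjusted p = 0.181 to 0.270). Itga10 stayed between 1.57 and 3.22 CPM and was not called, with 0.78 ± 0.28 for induction in P cells (adjusted p = 0.0931). Itga2, which lies beside Itga1 on the genome, was at most at 0.555 CPM except for 1.6 CPM in P replica 1 of day −2, and was not called.

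**Figure D2:**
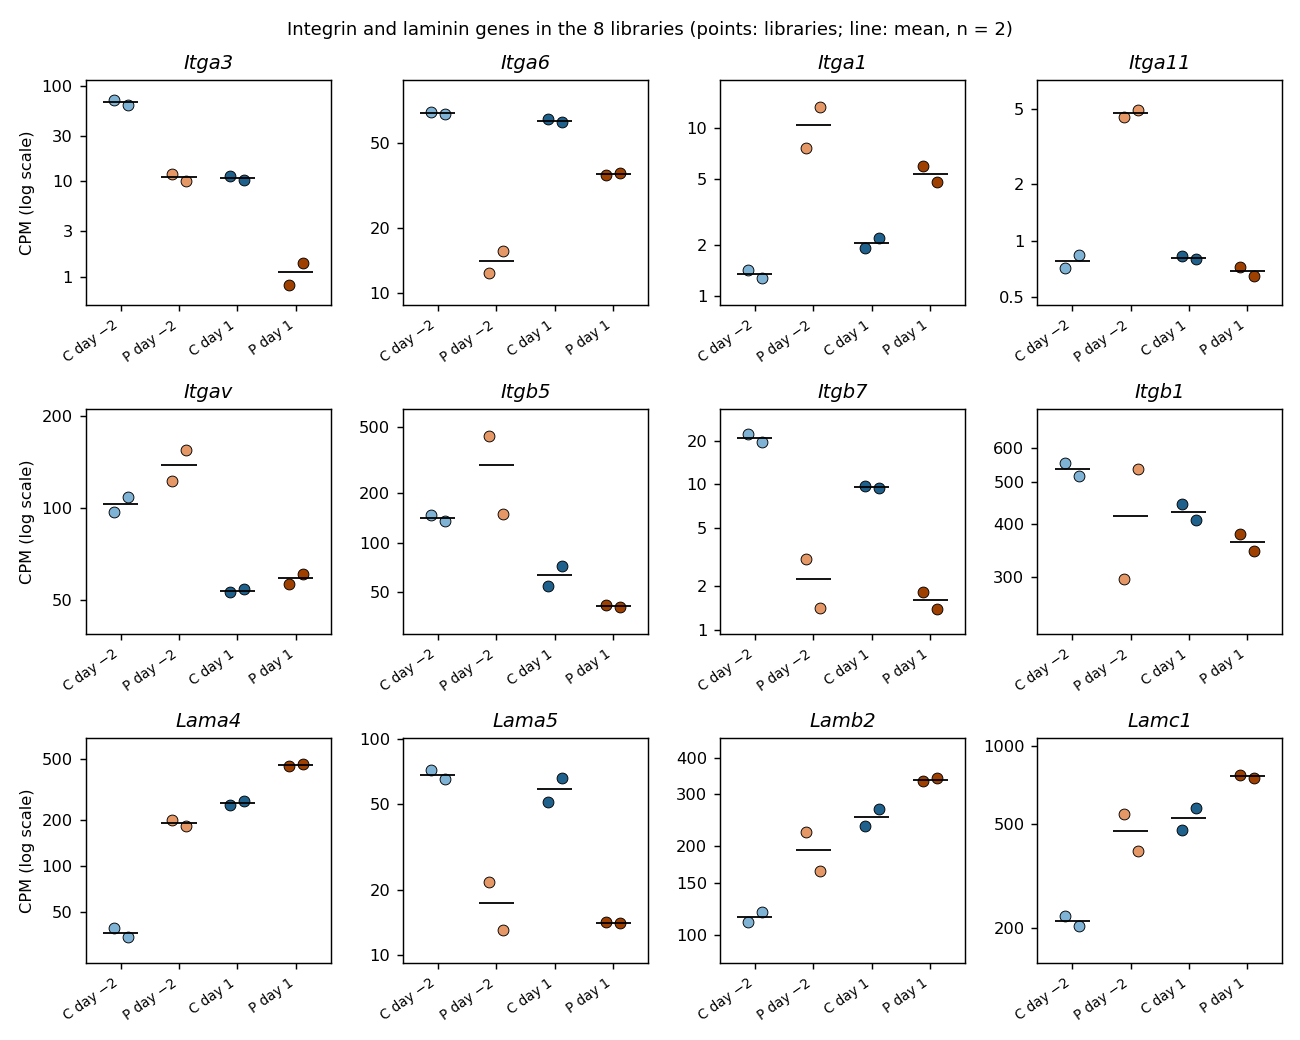
Level in CPM (y axis, log scale, with its own range in each panel) of 12 integrin and laminin genes in the 8 libraries; points are libraries and lines the means of the 2 replicas of each condition. Itga3 is at 71.9 and 63.8 CPM in C cells at day −2 and at 0.811 and 1.40 CPM in P cells at day 1, Itga11 is high only in P cells at day −2, and Lama4 is lowest in C cells at day −2 and highest in P cells at day 1.

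Of the 4 receptors of the RGD motif tested, Itgav and Itga2b were called in 1 comparison each. Itga5, the fibronectin receptor, was at 432 to 591 CPM in all libraries and was not called, with 0.37 ± 0.13 for P against C cells at day −2 (adjusted p = 0.157). Itgav, the α subunit of the vitronectin receptors, was at 96.9 and 109 CPM in C cells and 123 and 154 CPM in P cells at day −2. At day 1 the values were 52.9 and 54.3 CPM in C cells and 56.5 and 60.9 CPM in P cells. The day 1 libraries were lower than the day −2 libraries in both kinds of cells. Its log2 change of −1.24 ± 0.16 in P cells (adjusted p = 0.0031) was called and kept in every refit, and that of −0.94 ± 0.16 in C cells (adjusted p = 0.00691) lay just within the ratio threshold.

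Itga2b, best known from platelets, was at 3.50 and 4.12 CPM in C cells and 7.40 and 2.50 CPM in P cells at day −2. Induced C cells had 9.07 and 11.8 CPM and induced P cells 5.21 and 7.0 CPM. It rose by 1.45 ± 0.48 with induction of C cells (adjusted p = 0.0672), a call lost without any 1 C library or either P library of day 1 (adjusted p = 0.109 to 0.279). Of the platelet markers, Gp9 and Pf4 were at most at 0.143 CPM, and Gp1bb was at 16.5 to 82.2 CPM. Itga8, a receptor of nephronectin, had 1.12 and 1.20 CPM in uninduced C cells and 0.160 and 0.713 CPM in uninduced P cells. After induction it had 1.07 and 1.27 CPM in C cells and 0.214 and 0.327 CPM in P cells, and it was not called. Its log2 ratio of −2.10 ± 0.68 at day 1 had an adjusted p of 0.174.

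Itga9, a receptor of tenascin and osteopontin, was at 0.558 and 0.310 CPM in C cells and 4.26 and 2.53 CPM in P cells at day −2. Induced C cells had 0.0789 and 0.239 CPM and induced P cells 0.683 and 0.560 CPM, so that each P library was above each C library of the same day. Itga9 was higher in P cells by 2.94 ± 0.56 (adjusted p = 0.0326) at day −2, and fell by 2.43 ± 0.54 with induction of P cells (adjusted p = 0.0228), both on the log2 scale. These values were 2.53 and −2.03 without P replica 1 of day −2. The first call was lost without either C library of day −2 (adjusted p = 0.201 and 0.306) and the second without either P library of day 1 (adjusted p = 0.130 and 0.164). Itga4, the partner of the same class, was at most at 0.664 CPM and was not called.

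Among the β subunits, Itgb7 was lower in P than in C cells at both times. It pairs with Itga4 and Itgae, mainly on lymphocytes, and was at 22.2 and 19.7 CPM in C cells and at 3.09 and 1.43 CPM in P cells at day −2. After induction the values were 9.74 and 9.43 CPM in C cells and 1.84 and 1.40 CPM in P cells. The P to C log2 ratio was −3.24 ± 0.37 (adjusted p = 0.00523) at day −2 and −2.56 ± 0.37 (adjusted p = 0.0165) at day 1. Induction of C cells gave −1.13 ± 0.33 (adjusted p = 0.0467). Without P replica 1 the ratio at day −2 was −3.86, and that call was lost only when its conditions were fitted alone (adjusted p = 0.107). The call at day 1 was lost without any 1 library of that day (adjusted p = 0.103 to 0.193), and that of C cells without any 1 C library (adjusted p = 0.166 to 0.221). The α partners of Itgb7 were near the floor: Itga4 had 1 to 15 counts and Itgae 3 to 10. Ptprc, the common leukocyte antigen, was at 0 to 0.319 CPM, and Cd3e, a marker of T cells, at most at 0.107 CPM.

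Itgb1, the common partner of the laminin and collagen receptors, was at 553 and 518 CPM in C cells and 297 and 537 CPM in P cells at day −2. At day 1 the levels were 444 and 408 CPM in C cells and 379 and 346 CPM in P cells. It was not called: the P to C log2 ratios were −0.36 ± 0.27 and −0.23 ± 0.27, and those with induction −0.33 ± 0.27 in C cells and −0.20 ± 0.27 in P cells (adjusted p = 0.402 to 0.795). The replicas of P cells at day −2 differed more than the conditions did, and without replica 1 the ratio at day −2 was 0.013. Calls were thus made for α subunits of the laminin and collagen receptors, while a difference of their shared β subunit was not detectable with these replicas.

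Itgb5, which pairs with Itgav to bind vitronectin, was at 147 and 135 CPM in C cells and 443 and 149 CPM in P cells at day −2. After induction the C cells had 54.8 and 72.2 CPM and the P cells 41.7 and 40.9 CPM. P replica 1 of day −2 was far above all the other libraries. Its log2 change of −2.84 ± 0.48 with induction of P cells (adjusted p = 0.00826) was kept in every refit and was −1.86 without that library. In C cells the change of −1.15 ± 0.45 missed the threshold (adjusted p = 0.107), and it passed with DESeq2 (adjusted p = 0.0414) and in 8 of 16 refits in all. Itgb3, the other partner of Itgav, was at 34.6 and 34.4 CPM in C cells and 59.9 and 43.5 CPM in P cells at day −2. After induction, C cells had 21.0 and 23.6 CPM and P cells 41.5 and 42.7 CPM. All P libraries were above all C libraries, and the log2 ratio of 0.92 ± 0.19 at day 1 (adjusted p = 0.0494) lay within the ratio threshold, as did that of −0.63 ± 0.19 with induction of C cells (adjusted p = 0.0482).

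Itgb2, the β subunit of the leukocyte integrins, had 2 to 15 counts and was at 0.597 and 0.576 CPM in C cells at day −2 against 0.118 and 0.0796 CPM at day 1, and at 0.0933 to 0.428 CPM in P cells. Its log2 change of −2.51 ± 0.63 with induction of C cells (adjusted p = 0.0283) was lost without any 1 C library (adjusted p = 0.132 to 0.181). Itgb8, a receptor that activates latent TGFβ, had 13 counts in C cells and 2 in P cells at day −2, a ratio of 0.157 with a 95% counting interval of 0.0172 to 0.692. At day 1 it was at 0.592 and 1.07 CPM in C cells and 0.0854 and 0.0933 CPM in P cells, and the log2 ratio of −3.15 ± 0.87 was not called (adjusted p = 0.121). Itgb4, part of the hemidesmosome of epithelia, was at most at 1.53 CPM and was not called. The 5 members with too few counts for a test were the leukocyte α subunits Itgae, Itgal, Itgam and Itgax, with at most 10, 7, 37 and 7 counts, and Itgb6, with at most 5. The 37 counts of Itgam were in P replica 1 of day −2. The summed level of the 8 leukocyte markers, of which Itgam is 1, was 3.86 to 9.16 CPM, mostly from Cd68 and Csf1r, and the part of such cells in these values was not tested.

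Among the laminin α chains, Lama4 and Lama5 differed between conditions in opposite directions. Lama4, the α chain of laminins found around fat, muscle and endothelial cells, was at 39.1 and 34.4 CPM in C cells and 199 and 182 CPM in P cells before induction. After it, the values were 250 and 265 CPM in C cells and 450 and 468 CPM in P cells. The conditions did not overlap and stood in this order. Lama4 was higher in P cells by 2.38 ± 0.15 on the log2 scale (adjusted p = 0.00108) at day −2, while 0.83 ± 0.14 at day 1 (adjusted p = 0.0265) lay within the ratio threshold. Induction raised it by 2.81 ± 0.15 (adjusted p = 8.03e-05) in C cells and by 1.27 ± 0.14 (adjusted p = 0.00165) in P cells. These 3 calls were kept in every refit. The interaction of −1.54 ± 0.20 (adjusted p = 0.0207) was lost without any 1 C library or either P library of day 1 (adjusted p = 0.109 to 0.220).

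Lama5, the α chain of most epithelial basement membranes, was at 71.6 and 65.0 CPM in C cells and at 21.9 and 13.0 CPM in P cells at day −2. The day 1 levels were 50.8 and 66.0 CPM in C cells and 14.2 and 14.1 CPM in P cells. Lama5 was lower in P cells at day −2 (log2 ratio −1.97 ± 0.27, adjusted p = 0.0101) and at day 1 (−2.04 ± 0.27, adjusted p = 0.0126). Induction gave −0.23 ± 0.26 in C cells (adjusted p = 0.561) and −0.30 ± 0.26 in P cells (adjusted p = 0.440), with overlapping libraries. The call at day −2 was lost without C replica 1 of day −2 (adjusted p = 0.105, log2 ratio −1.90), and the ratio was −2.38 without P replica 1. That at day 1 was lost without C replica 2 (adjusted p = 0.1003, log2 ratio −1.86) or either P replica of day 1 (adjusted p = 0.160 and 0.162).

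Lama2, the α chain of muscle and nerve basement membranes, was at 0.597 and 0.974 CPM in C cells and 0.745 and 1.96 CPM in P cells at day −2. At day 1, C cells had 3.55 and 3.62 CPM and P cells 8.67 and 9.89 CPM. All day 1 libraries were above all day −2 libraries. It rose with induction by 2.19 ± 0.47 in C cells (adjusted p = 0.0159) and by 2.74 ± 0.45 in P cells (adjusted p = 0.00738). The first call was lost without C replica 1 of day −2 (1.88, adjusted p = 0.129), and the second was 3.64 without P replica 2 of day −2. At day 1 the P to C log2 ratio was 1.37 ± 0.42 and was not called (adjusted p = 0.153), and with DESeq2 it was (adjusted p = 0.0512). Lama1 and Lama3 were at most at 0.597 and 1.04 CPM and were not called.

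Of the β and γ chains, Lamb2, Lamb3 and Lamc1 were called and Lamb1 and Lamc3 were not. Lamb1, a common β chain, was at 402 and 383 CPM in C cells and 582 and 405 CPM in P cells at day −2. Its day 1 levels were 479 and 543 CPM in C cells and 391 and 370 CPM in P cells. The P to C log2 ratios were 0.33 ± 0.20 and −0.43 ± 0.20, and those with induction 0.38 ± 0.20 in C cells and −0.38 ± 0.20 in P cells (adjusted p = 0.198 to 0.357). Lamb2, the β chain of muscle, nerve and vessel laminins, was at 110 and 120 CPM in C cells and 224 and 165 CPM in P cells at day −2. At day 1, C cells had 235 and 268 CPM and P cells 332 and 341 CPM. It rose by 1.13 ± 0.18 with induction of C cells (adjusted p = 0.00561), kept in every refit, while 0.79 ± 0.18 in P cells (adjusted p = 0.0249) and 0.76 ± 0.18 for P against C cells at day −2 (adjusted p = 0.0632) lay within the ratio threshold.

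Lamb3, a β chain of epithelial anchoring laminin, was at 2.35 and 2.57 CPM in C cells and 0.586 and 0.250 CPM in P cells before induction. After it, the levels were 0.237 and 0.239 CPM in C cells and 0.384 and 0.0933 CPM in P cells. Only the C cells before induction were above 1 CPM. Lamb3 fell by 3.34 ± 0.67 on the log2 scale with induction of C cells (adjusted p = 0.0125), kept in every refit. It was lower in P cells at day −2 (log2 ratio −2.59 ± 0.64, adjusted p = 0.068), and −3.26 without P replica 1. This call was lost without any 1 C library (adjusted p = 0.143 to 0.395). The keratin Krt8, an epithelial marker, was likewise at 3.11 and 2.35 CPM in C cells at day −2 and at most at 0.214 CPM elsewhere, and its part in the Lamb3 result was not tested. The other epithelial markers, Epcam, Cdh1, Krt5, Krt14 and Krt18, reached at most 0.677 CPM.

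Lamc1, the γ chain of nearly all laminins, was at 222 and 204 CPM in C cells and 549 and 394 CPM in P cells at day −2. On day 1 the C cells had 476 and 578 CPM and the P cells 774 and 753 CPM. Every other condition was above the C cells before induction. It rose by 1.31 ± 0.20 with induction of C cells (adjusted p = 0.00465), kept in every refit, while 0.70 ± 0.20 in P cells (adjusted p = 0.0498) lay within the ratio threshold. The P to C log2 ratio was 1.14 ± 0.20 (adjusted p = 0.0242) at day −2 and 0.53 ± 0.20 (adjusted p = 0.242) at day 1. The call at day −2 was lost without either C library of that day (adjusted p = 0.195 and 0.244). It fell within the ratio threshold without P replica 1 (0.89) and with library totals (0.93). Lamc3 was at most at 0.531 CPM and was not called.

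Shares of the counts within a family show the same values as a mixture of chains, with no test. They depend on transcript length and are read between libraries only, and their 95% Wilson intervals reached at most 1.99 percentage points to either side for the sets given here, counting error only. Of all integrin α counts, the laminin-binding subunits took 21.0% and 19.2% in uninduced C cells against 3.87% and 3.75% in uninduced P cells. After induction they took 11.3% and 10.3% in C cells against 5.87% and 6.29% in P cells. The collagen-binding subunits took 0.704% and 0.665% in uninduced C cells against 2.04% and 2.67% in uninduced P cells. The RGD-binding subunits took most of the rest, 78.0% to 79.9% in C cells at day −2 and 87.8% to 93.2% in the other conditions. P cells at day −2 thus had a smaller share of laminin receptor α counts and a larger share of collagen receptor α counts than C cells of the same day.

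Of the laminin α counts, Lama4 took 34.6% and 33.9% in uninduced C cells against 89.6% and 92.0% in uninduced P cells, and 82.0% and 79.1% against 94.9% and 95.1% after induction. Lama5 took 63.4% and 64.1% in uninduced C cells against 9.88% and 6.58% in uninduced P cells, and 16.7% and 19.7% against 3.0% and 2.87% after induction. The C cells before induction thus had the lowest Lama4 share and the highest Lama5 share of all conditions. Of the laminin β counts, Lamb2 took 22.6% ± 1.58 (SD, n = 2) in uninduced C cells against 28.4% ± 0.825 in uninduced P cells, and 33.0% ± 0.066 against 46.9% ± 1.45 after induction. Of the β integrin counts, Itgb1 took 36.9% in P replica 1 of day −2, where Itgb5 took 55.1%, and 72.9% to 83.7% in the other 7 libraries.

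**Figure D3:**
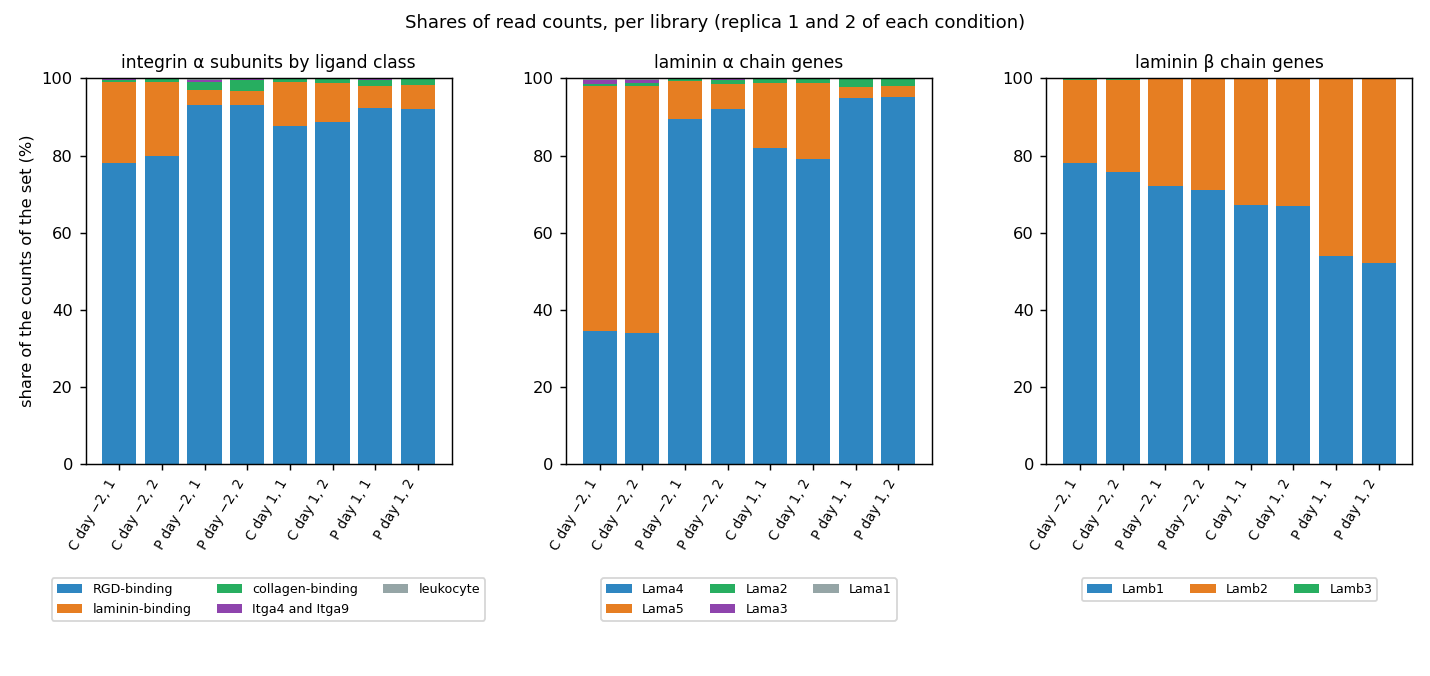
Share of read counts (y axis, percent) by library (x axis; replica 1 and 2 of each condition) among integrin α subunits by ligand class, laminin α chains and laminin β chains. The laminin-binding share of the α subunits is 21.0% and 19.2% in uninduced C cells against 3.87% and 3.75% in uninduced P cells, and Lama4 makes up over 79% of the laminin α counts in all libraries but those of C cells at day −2.

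Set side by side, the laminin receptors and the laminin chains did not move in 1 direction. In P against C cells at day −2, the receptor genes Itga3 and Itga6 were lower, and of the chains Lama5 and Lamb3 were lower while Lama4 and Lamc1 were higher. With induction of C cells, Itga3 fell and Itga6 was not called, while Lama4, Lama2, Lamb2 and Lamc1 rose and Lamb3 fell. With induction of P cells, Itga3 and Itga7 fell and Itga6 rose, while Lama4 and Lama2 rose and no other chain was called. Lamb2 and Lamc1 also rose there, by 0.79 and 0.70 on the log2 scale, within the ratio threshold. Their interactions were not called (adjusted p = 0.489 and 0.368), so a different response in P cells was not shown for these chains. Without P replica 1 of day −2, the change of Itga7 was −0.62 and the P to C log2 ratio of Lamc1 at day −2 was 0.89. At day 1, Itga3 and Lama5 were lower in P cells and no other laminin receptor or chain was called. The comparisons share libraries, so their lists of called genes are not independent of each other.

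Genes of the basement membrane that bind laminin or lie beside it were taken as a list of 21, of which 19 could be tested. In P against C cells at day −2, 7 were called higher and 0 lower, with a median log2 ratio of 0.80, beside 4.83% and 2.15% of all genes. Without P replica 1 of that day, 1 of the 7, Col15a1, was still called and the median was 0.36. At day 1, 1 was called higher and 0 lower, with a median of −0.13, beside 1.83% and 2.23%. Induction of C cells called 9 higher and 1 lower, with a median of 0.62, beside 10.7% and 9.68% of all genes. Induction of P cells called 1 higher and 4 lower, with a median of −0.07, beside 7.65% and 10.4%. Without P replica 1 of day −2 it called 5 higher and 2 lower, with a median of 0.49. Nid2, a nidogen that ties laminin to collagen IV, was at 12.7 and 12.3 CPM in C cells and 24.0 and 19.6 CPM in P cells at day −2. Induced C cells had 166 and 181 CPM and induced P cells 131 and 135 CPM. It rose by 3.79 ± 0.17 with induction of C cells (adjusted p = 6.16e-05) and by 2.61 ± 0.16 in P cells (adjusted p = 0.000197), with an interaction of −1.18 ± 0.21 (adjusted p = 0.0635). Col15a1, a collagen at the outer face of basement membranes, was at 0.797 and 0.708 CPM in C cells and 16.1 and 8.09 CPM in P cells at day −2. The induced cells had 5.60 and 6.13 CPM (C) and 24.6 and 23.0 CPM (P). It was higher in P cells by 3.99 ± 0.38 (adjusted p = 0.00301) at day −2 and by 2.02 ± 0.33 (adjusted p = 0.0238) at day 1. The value at day −2 was 3.42 without P replica 1. Col15a1 rose by 2.95 ± 0.38 with induction of C cells (adjusted p = 0.0022).

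Agrn, agrin, a heparan sulphate proteoglycan that binds laminin, rose by 2.22 ± 0.32 with induction of C cells (adjusted p = 0.00346), and Sdc1, a syndecan, was higher in P cells by 1.12 ± 0.25 at day −2 (adjusted p = 0.0507), a call lost without P replica 1 (0.68). Col4a5, a chain of collagen IV, was at 126 and 144 CPM in C cells and at 499 and 218 CPM in P cells at day −2, higher by 1.41 ± 0.36 (adjusted p = 0.0726), a call lost without P replica 1 (0.70). It fell by 2.18 ± 0.37 with induction of P cells (adjusted p = 0.00803), and the change was −1.48 without that replica. In the same comparison Sparc, a collagen-binding protein, fell by 1.21 ± 0.30 (adjusted p = 0.0302) and Fbln2, a fibulin, fell by 1.03 ± 0.28 (adjusted p = 0.0414). Neither was called without P replica 1 of day −2, with −0.68 for Sparc and −0.57 for Fbln2. The collagen IV chains Col4a1 and Col4a2, named after their values were seen, were at 11059 against 3487 CPM and at 5989 against 2139 CPM in the P replicas of day −2. Their log2 ratios at day −2 were 1.76 and 1.63, and both were 0.71 without P replica 1, within the ratio threshold.

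**Figure D4:**
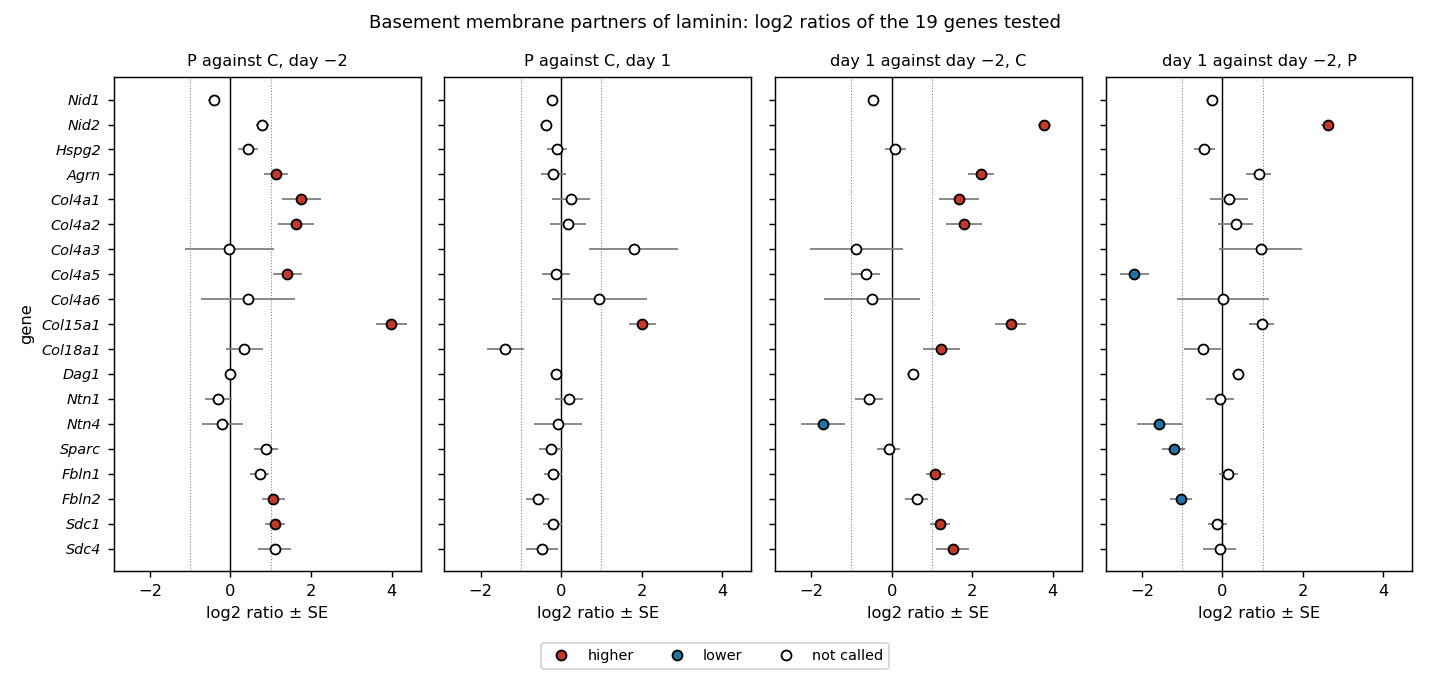
Log2 ratios (x axis) of the 19 tested basement membrane partners of laminin in the 4 comparisons, with bars of 1 SE; red points were called higher, blue lower and white not called, and dotted lines mark the ratios 2 and 0.5. For the knockdown, 7 of these genes are called higher at day −2, of which 1 is still called without P replica 1, and 1 at day 1.

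Of 36 genes for other integrin ligands, 28 could be tested. The knockdown comparison called 1 higher and 0 lower at day −2 (median log2 ratio 0.11), beside 4.83% and 2.15% of all genes. At day 1 it called 0 higher and 4 lower (−0.44), beside 1.83% and 2.23%. Induction called 7 higher and 5 lower in C cells (0.11), beside 10.7% and 9.68%, and 3 higher and 9 lower in P cells (−0.77), beside 7.65% and 10.4%. Without P replica 1 of day −2 the counts were 1 and 0 at day −2 and 3 and 9 for induction of P cells, with a median of −0.45 for the latter. Fn1, fibronectin, the ligand of the Itga5 receptor, was at 3727 and 3660 CPM in C cells and 3107 and 3206 CPM in P cells at day −2. At day 1 the values were 11519 and 11991 CPM in C cells and 5224 and 5213 CPM in P cells. It rose by 1.67 ± 0.14 with induction of C cells (adjusted p = 0.000479) and was lower in P cells at day 1 (log2 ratio −1.17 ± 0.14, adjusted p = 0.00923). Spp1, osteopontin, a ligand of Itgav and Itga9 receptors, was at 1148 and 1283 CPM in C cells and 851 and 1073 CPM in P cells at day −2. After induction it was at 41.2 and 34.1 CPM in C cells and 10.8 and 10.3 CPM in P cells. It fell in C cells (log2 ratio −5.01 ± 0.21, adjusted p = 6.16e-05) and in P cells (−6.51 ± 0.23, adjusted p = 8.36e-05). It was lower in P cells at day 1 (−1.83 ± 0.19, adjusted p = 0.00524).

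Thbs1, thrombospondin, was the 1 ligand called higher in P cells at day −2, by 2.39 ± 0.21 (adjusted p = 0.00242), at 883 and 885 CPM in C cells against 5480 and 3813 CPM in P cells. This value was 2.12 without P replica 1. Thbs1 fell with induction in C cells (log2 ratio −1.48 ± 0.20, adjusted p = 0.00294) and in P cells (−4.03 ± 0.23, adjusted p = 0.00016), with an interaction of −2.55 ± 0.29 (adjusted p = 0.013). Tgfbi, a matrix protein that binds several integrins, was lower in P cells at day 1 (log2 ratio −1.87 ± 0.17, adjusted p = 0.00407), with an interaction of −1.80 ± 0.24 (adjusted p = 0.0212). Thbs2, another thrombospondin, fell with induction in C cells (log2 ratio −2.80 ± 0.14, adjusted p = 7.84e-05) and in P cells (−3.01 ± 0.14, adjusted p = 0.000128). Npnt, nephronectin, fell in C cells (−2.93 ± 0.19, adjusted p = 0.000179) and in P cells (−2.69 ± 0.19, adjusted p = 0.000333). Postn, periostin, rose by 2.37 ± 0.36 in C cells (adjusted p = 0.00425) and 2.46 ± 0.36 in P cells (adjusted p = 0.00479). Tnxb, a tenascin, rose by 1.86 ± 0.23 in C cells (adjusted p = 0.00199) and Edil3, an RGD protein, by 1.77 ± 0.22 in P cells (adjusted p = 0.00234).

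Of 35 genes for integrin adaptors and signalling, 34 could be tested. Induction called 2 higher and 4 lower in C cells (median log2 ratio −0.37), near the 20.4% of all genes called there. In P cells it called 0 higher and 11 lower (−0.51), beside 7.65% and 10.4% of all genes, and 0 and 10 without P replica 1 of day −2, with 8 of the 11 still called. The knockdown comparison called 1 higher and 0 lower at day −2 (0.26), beside 4.83% and 2.15% of all genes. At day 1 (0.0033) edgeR called 0 of them, beside 1.83% of all genes called higher and 2.23% lower. Before adjustment, 2166 of all genes had an edgeR p under 0.05 in that comparison. Parvb, a parvin that binds the integrin-linked kinase, was at 32.7 to 54.9 CPM in the day −2 libraries and at 2.33 to 3.13 CPM in those of day 1. It fell in C cells (log2 ratio −4.01 ± 0.29, adjusted p = 0.000243) and in P cells (−3.87 ± 0.29, adjusted p = 0.000399). The actin crosslinkers Actn1 (−1.45 ± 0.14, adjusted p = 0.000904) and Actn4 (−1.28 ± 0.14, adjusted p = 0.00144) fell in P cells. Vcl, vinculin, fell in C cells (−1.20 ± 0.23, adjusted p = 0.0101) and in P cells (−1.67 ± 0.23, adjusted p = 0.00382). Tns3, a tensin, likewise fell in C cells (−1.02 ± 0.27, adjusted p = 0.0322) and in P cells (−1.88 ± 0.27, adjusted p = 0.00465). Tns2, another tensin, rose by 1.05 ± 0.15 (adjusted p = 0.00361) in C cells. Lims2, a partner of the integrin-linked kinase, was at 0.518 and 0.0443 CPM in C cells and 6.60 and 3.28 CPM in P cells at day −2, higher by 4.06 ± 0.73 (adjusted p = 0.0268) and by 3.48 without P replica 1, and rose by 3.33 ± 0.73 with induction of C cells (adjusted p = 0.0176). Tln2, a talin, had an interaction of −1.29 ± 0.27 (adjusted p = 0.0888).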

How the data were processed

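RNA of 8 libraries was sequenced on the Ion Torrent system. According to the methods of the study, the authors removed artifacts with the FASTX-Toolkit and aligned the reads to mm9 with TopHat2 (version 2.0.9 in the processing notes of the submitters). The authors deposited raw read counts per NCBI gene (UCSC refGene annotation), without normalization. The handling of strand and of reads with several places is not given in the sources used here. Symbols came from a RefSeq list of another build (GRCm38.p6), used for names and neighbouring genes only: 23929 genes had a symbol and 84 had none.

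The counts were filtered with filterByExpr (minimum count 10), which left 13339 genes, scaled by TMM, and fitted with edgeR 4.0.16 (R 4.3.3, limma 3.58.1), 1 mean per condition over all 8 libraries, by the quasi-likelihood test. CPM use the TMM-scaled library sizes. Errors of log2 ratios are SE, computed as the size of the ratio over the square root of F. p-values were adjusted over all genes tested (Benjamini-Hochberg), and all tests are two-sided. The labels call the libraries of a condition replicates, and the study calls them biological replicas; nothing says that they came from separate infections, so p-values measure the spread between these libraries. The script was tested on simulated data.

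The members and gene lists were chosen with earlier results of these data known. Members called in any comparison were named with each library's value, and the others by range. Itgb1, Lamb1 and Lamc1 were always given. From each of the other lists and in each direction, the text names the 3 called genes of lowest p whose mean was at least 50 counts. Shares were computed from counts, because transcript lengths were not used here; shares per length, which were planned, were not run. Intervals and floors cover counting error only. The alternatives were DESeq2 1.42.0, its size factors, library totals, no filter, a minimum of 10 counts in all libraries, a fit of only the conditions compared, the replica number as a block, an adjusted p under 0.05, calls without the ratio threshold, and leaving out 1 library at a time. Leaving out a library leaves a condition with 1 library, which is then assumed to vary like the others.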

Additional observations from a re-analysis of the deposited data

Results flagged for a closer look

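By the interaction test, 3 members responded to induction differently in P and in C cells. For Itga11 the response in P cells minus that in C cells was −2.83 on the log2 scale (edgeR, adjusted p = 0.0388), for Itga6 it was 1.46 (adjusted p = 0.0388) and for Lama4 −1.54 (adjusted p = 0.0207). Each rests on few libraries, as the calls were lost without any 1 of the 6 libraries outside P cells of day −2. The P replicas of day −2 had the widest spread, so keeping the calls without either of them is no check of these calls. A block for the replica number ended the calls of Itga6 (adjusted p = 0.113) and Itga11 (adjusted p = 0.117) but not that of Lama4. No library could be tested as standing apart within its condition, since each condition has 2.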

How the results depend on the processing

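Of the 35 called values of the members, 16 kept their call under all alternatives run for them and 19 lost it under at least 1. DESeq2 kept 35, library totals 33 and the replica number as a block 29. The fit of each comparison's own conditions lost 8, and it was not run for the 3 called interactions. The called members changed from 9 to 14 for induction in C cells with own conditions; from 10 to 3 for P against C cells at day −2 with own conditions (5 to 15 with 1 library left out); from 4 to 7 with DESeq2 and with no ratio threshold, and to 8 with own conditions, for P against C cells at day 1 (1 to 8 with 1 library left out); and from 3 to 1 with the replica block for the interaction (0 to 14 with 1 library left out). Values that turned sign, none of them called, were Itga11 with induction of C cells (0.06 to −0.049 with library totals and −0.045 without C replica 1 of day −2), Itgb1 (−0.20 to 0.30 and −0.58), Itgb7 (−0.45 to 0.18 and −0.92) and Lama5 (−0.30 to 0.11 and −0.62) with induction of P cells, and Itgb1 for P against C cells at day −2 (−0.36 to 0.013 and −0.86), the second value of each pair being the other end of the range with 1 library left out. The cause of these changes was not tested.

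Over all genes, no ratio threshold gave 4743 calls in place of 2723 for induction in C cells, 4192 in place of 2406 in P cells, 1513 in place of 931 for the knockdown at day −2 and 820 in place of 542 at day 1. Own conditions gave 1213 for induction in P cells, 81 for the knockdown at day −2 and 899 at day 1. The replica block gave 597 at day −2 and 117 for the interaction, in place of 316, and an adjusted p under 0.05 gave 602 and 174. DESeq2 gave 930 for the interaction. With 1 library left out the ranges were 1664 to 3329 and 1248 to 5000 for induction in C and P cells, 188 to 4380 before and 63 to 994 after induction for P against C cells, and 32 to 8395 for the interaction.

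Libraries with the same replica number deviated together only between C and P cells at day −2 (r = 0.209 across genes, −0.0523 to −0.355 for the other pairs), so the numbers were not taken to pair the samples. The 6 calls lost with the block were the interactions of Itga6 and Itga11, Itga1 at day 1 (adjusted p = 0.149), Lamb3 at day −2 (0.110), Itga2b with induction of C cells (0.109) and Itga7 with induction of P cells. A block with the day 1 numbers crossed, chosen after seeing the data, kept all 35 calls. The values of the gene lists without P replica 1 of day −2 were also added after seeing the data. Genes under about 1 CPM rest on few counts, and 2 replicas leave small differences undetectable. Shares per transcript length were not run.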
